A study of Rattus norvegicus with 16 samples.

Results

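The 9 interferon genes described here were followed across lungs of spontaneously hypertensive (SH) and Sprague Dawley (SD) rats breathing sulfur dioxide (SO2) or air. They are the antiviral effectors Mx1, Mx2 and Ifit3, the transcription factors Irf7 and Irf1, the brake on interferon signalling Usp18, the interferon gamma-induced GTPases Irgm2 and Gbp2, and the interferon gamma receptor chain Ifngr1. The genes were taken by symbol from the array's platform annotation, which gave 10 probe sets (2 for Mx2 and 1 for each other gene) among 15866 probe sets and 10411 named genes on the array. The 9 genes were chosen on their measured signals in these same 4 groups, so their levels and differences are a description and carry no test of their own. All 10 probe sets passed the filter that left out the dimmest 30% of probe sets, and 11106 probe sets and 8060 named genes were kept.

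Total lung RNA of 16 samples was hybridised to 1 array each, to compare the strains in each exposure and the exposures in each strain. The groups were SH rats in SO2, SH rats in air, SD rats in SO2 and SD rats in air, with 4 arrays labelled as biological replicates in each. The SH rat is inbred and has high blood pressure and the SD rat is an outbred stock, so the 2 differ in genetic background as well as in blood pressure, and the SD rats are not the parent strain of the SH rat. Sulfur dioxide is an irritant gas. The labels give no dose, length of exposure, sampling time, age or sex, and do not say whether a sample pooled several animals. Values below are signals, the deposited linear array intensities, numbered as replicates 1 to 4 within a group. Differences are on the scale of log2(signal + 16) and are followed by their standard error (SE) from limma. This scale understates the change of dim probe sets, and signals of different probe sets are not set against each other.

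Interferons are secreted proteins that warn cells of infection. Type I interferons bind the receptor chains Ifnar1 and Ifnar2, and interferon gamma binds Ifngr1 and Ifngr2. Both receptors signal through Janus kinases and STAT proteins, which switch on many genes through short promoter motifs, the interferon-stimulated response element (ISRE) and the gamma-activated site (GAS). In the lung, epithelial cells and macrophages use this programme against respiratory viruses, and Irf7 keeps it running by driving more interferon.

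The promoter windows below are shown for the members whose window held an ISRE-like match, because the ISRE is a motif through which interferons switch on many genes. Each window runs from 250 bases before to 50 bases after the annotated start, read 5′ to 3′ on the gene's strand, in RefSeq's sequence of rat assembly GRCr8. The ISRE was searched as GAAANNGAAA and the GAS as TTCNNNGAA on both strands, and capitals mark the matches. Windows were found for 7 of the 9 genes; Mx2 and Usp18 are named only.

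Irf7, chr1:205799974-205800273, minus strand: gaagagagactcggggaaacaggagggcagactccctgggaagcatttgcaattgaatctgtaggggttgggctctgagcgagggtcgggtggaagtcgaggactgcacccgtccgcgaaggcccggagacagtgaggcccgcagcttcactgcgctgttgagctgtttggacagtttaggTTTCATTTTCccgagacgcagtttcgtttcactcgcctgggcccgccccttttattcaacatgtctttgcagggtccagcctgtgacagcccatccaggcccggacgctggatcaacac

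Ifit3, chr1:241527076-241527375, plus strand: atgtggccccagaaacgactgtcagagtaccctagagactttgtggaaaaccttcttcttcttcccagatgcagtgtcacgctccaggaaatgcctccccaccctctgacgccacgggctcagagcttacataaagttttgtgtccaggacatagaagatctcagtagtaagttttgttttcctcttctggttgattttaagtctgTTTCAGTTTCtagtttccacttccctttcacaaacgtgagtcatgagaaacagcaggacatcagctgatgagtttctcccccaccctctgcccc

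Irgm2, chr10:42889720-42890019, plus strand: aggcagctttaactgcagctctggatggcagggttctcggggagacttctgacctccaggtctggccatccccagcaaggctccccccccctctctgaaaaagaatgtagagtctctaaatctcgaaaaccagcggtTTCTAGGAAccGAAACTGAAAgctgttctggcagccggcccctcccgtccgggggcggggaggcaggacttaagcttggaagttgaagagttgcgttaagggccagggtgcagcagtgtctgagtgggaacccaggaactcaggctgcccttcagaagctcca

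Gbp2, chr2:234005477-234005776, plus strand: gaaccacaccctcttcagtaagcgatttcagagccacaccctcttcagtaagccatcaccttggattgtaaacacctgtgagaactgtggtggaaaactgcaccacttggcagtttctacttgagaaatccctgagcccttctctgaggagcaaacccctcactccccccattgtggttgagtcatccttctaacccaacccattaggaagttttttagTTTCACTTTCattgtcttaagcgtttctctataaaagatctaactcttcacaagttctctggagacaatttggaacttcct

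The ISRE match begins 69 bases before the start in Irf7, 44 in Ifit3, 102 in Irgm2 and 31 in Gbp2. In Irf7, Ifit3 and Gbp2 it lies on the opposite strand, so the capitals show its reverse complement. Irgm2 also holds a GAS match that begins 113 bases before the start, separated from its ISRE match by the bases cc. Irf1 (chr10:38417685-38417984, plus strand) holds a GAS match, TTCCCCGAA, that begins 142 bases before the start, and no ISRE match. The windows of Mx1 and Ifngr1 hold neither. Of the 7 windows, 4 held an ISRE match and 2 a GAS match. Among all 33469 windows of this length in the table, 3.92% held an ISRE match and 8.87% a GAS match, and among 32 other interferon genes these shares were 43.8% and 28.1%. A match is a run of letters and not a measured binding site.

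The arrays had lung transcripts at high level. Sftpc, which encodes surfactant protein C, ranged from 24004 to 45111 over the 16 arrays, and Scgb1a1, the club cell secretory protein, from 22863 to 36625. The median signal of an array lay between 250.2 and 281.8. The array labelled SD air replicate 2 went against its strain label. At 90 probe sets that separated the strains in SO2, each air array was set against the means of the other SH air and of the other SD air arrays. SD air replicate 2 was nearer the SD mean at 20 (22.2%), where the other SD air arrays had 64 to 78, and the SH air arrays were nearer the SH mean at 69 to 76. For this reason a second value, fitted with that array left out, stands beside the member differences, gene counts and named pathway genes that rest on SD air. This was decided after the values were seen. The 90 probe sets include both for Mx2 and those for Irf7 and Ifngr1. On SD air replicate 2, Mx2 1369202_at (653) and Irf7 (1366) read inside the range of the SH air arrays. Mx2 1387283_at (238) and Ifngr1 (2608.5) read outside the range of the SH arrays, on the SD side. Leaving out an SD array picked for SH-like signals tends to widen the strain differences in air. Member and pathway calls made without that array are therefore a description.

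Mx1 encodes a dynamin-like GTPase of the nucleus that blocks RNA viruses in rodents. Its signals were 565, 812, 854 and 726 in SH rats in SO2 and 433, 512, 729.6 and 462 in SH rats in air. In SD rats they were 409.5, 334, 488 and 562 in SO2 and 226, 425, 297.5 and 373 in air. Every SH array lay above every SD array of the same exposure. The group means followed the order SH SO2 (739 ± 128, SD, n = 4), SH air (534 ± 134), SD SO2 (448 ± 98.5) and SD air (330.4 ± 87.0), and neighbours in this order overlapped. The SH minus SD difference was 0.71 ± 0.20 in SO2 and 0.67 ± 0.20 in air, or 0.80 ± 0.21 without SD air replicate 2. Between SO2 and air the difference was 0.47 ± 0.20 in SH rats and 0.43 ± 0.20 in SD rats (0.56 ± 0.21 without that array), with overlapping groups in both strains, also without that array. In bulk lung, fewer cells of a type and less RNA per cell cannot be told apart.

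Mx2 encodes a related GTPase that acts in the cytoplasm of rodent cells, and in the reference table its gene lies on chromosome 11 with 1 gene, Fam3b, between it and Mx1. The array carries 2 probe sets for it, and the reference lists Mx3 as another name of the same gene. Probe set 1369202_at had the widest range of the 10 on the log2 scale. It read 933, 857, 1181.5 and 1098 in SH rats in SO2 and 577, 847, 946 and 741 in SH rats in air. In SD rats it read 43.0, 60.0, 44.6 and 29.2 in SO2 and 117, 653, 72.2 and 293 in air. All 8 SH arrays were bright and all 4 SD SO2 arrays were dim, between the 11.3 and 19.9 percentile of the probe sets on their array. The SD air arrays were scattered between, and the highest of them, 653 on SD air replicate 2, lay inside the range of the SH air arrays. Without that array the SD air mean was 161 ± 117 (SD, n = 3), against 284 ± 264 with it.

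The SH minus SD difference of probe set 1369202_at was 4.11 ± 0.40 in SO2, a 17.3-fold difference on the offset scale and the smallest p of all 11106 probe sets. In air it was 1.82 ± 0.40, or 2.35 ± 0.30 without SD air replicate 2. With an offset of 1 in place of 16 the difference in SO2 was 4.53, and with an offset of 64 it was 3.32, so its size depends on how dim signals are handled. Detection calls were not used here, and for the SD SO2 arrays the tenth percentile of all signals averaged 21.5 ± 3.49 (SD, n = 4). For SO2 minus air the difference was -1.91 ± 0.40 in SD rats, with all 4 SO2 arrays below all 4 air arrays, and -1.38 ± 0.30 without SD air replicate 2. In SH rats SO2 minus air was 0.39 ± 0.40, with overlapping groups. The SO2 effect in SH rats minus that in SD rats was 2.30 ± 0.57 (limma adjusted p = 0.959). Without SD air replicate 2 it was 1.77 ± 0.41 (adjusted p = 0.735).

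The other Mx2 probe set, 1387283_at, showed a smaller strain difference. It read 511, 532, 567 and 405 in SH rats in SO2 and 389, 405.5, 408 and 379.9 in SH rats in air. In SD rats it read 215, 273, 253 and 416 in SO2 and 192.5, 238, 233 and 331 in air. The strains overlapped in SO2 only through SD SO2 replicate 4, which had the highest SD signal on this probe set, at 416 against 405 on SH SO2 replicate 4, and the lowest of all 16 arrays on 1369202_at, at 29.2. The SH minus SD difference was 0.80 ± 0.18 in SO2 and 0.66 ± 0.18 in air (0.65 ± 0.20 without SD air replicate 2). The SO2 minus air difference was 0.19 ± 0.18 in SD rats (0.18 ± 0.20 without that array), the opposite sign from 1369202_at, and 0.33 ± 0.18 in SH rats. The SO2 effect in SH rats minus that in SD rats was 0.14 ± 0.26, or 0.15 ± 0.28 without that array. Deviations from the group means on the 2 probe sets had r = 0.11 over the 16 arrays and 0.22 without SD air replicate 2. Which part of the transcript each probe set reads was not used here, and the 2 probe sets disagree on the size of the strain difference and on the sign of the SO2 difference in SD rats.

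**Figure D1:**
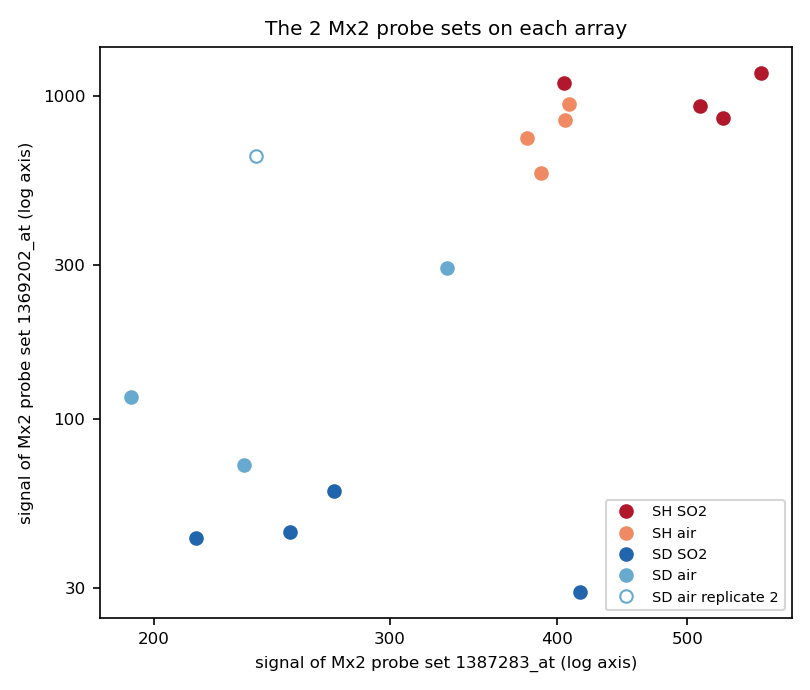
Signal of Mx2 probe set 1369202_at (y axis, log) against that of 1387283_at (x axis, log), 1 point per array, with SD air replicate 2 as an open circle. The 4 SD SO2 arrays sit at 29.2 to 60.0 on the y axis, while the 8 SH arrays sit at 577 to 1182.

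Ifit3 encodes a tetratricopeptide protein that works with Ifit1 against viral RNA. Signals were 537.5, 514, 696 and 627 in SH rats in SO2 and 475.5, 486.5, 644 and 427 in SH rats in air. SD rats had 411, 219.7, 409 and 404 in SO2 and 232, 377, 185.5 and 310.0 in air. Every SH array exceeded every SD array of the same exposure, and 3 of the 4 SD SO2 arrays lay within 404 to 411. SH minus SD was 0.73 ± 0.21 in SO2 and 0.87 ± 0.21 in air, or 1.03 ± 0.22 without SD air replicate 2. Between SO2 and air the difference was 0.22 ± 0.21 in SH rats and 0.37 ± 0.21 in SD rats (0.53 ± 0.22 without that array), and the groups overlapped in both strains, with and without it.

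Irf7, the transcription factor that amplifies the type I interferon response, had signals of 1529.5, 2617.5, 3007 and 1789 in SH rats in SO2. SH rats in air had 1259.9, 1565, 2011 and 1673. SD rats had 866, 1013, 1567 and 912 in SO2 and 775, 1366, 1005 and 784 in air. The strains overlapped in SO2 only through SD SO2 replicate 3 (1567), which exceeded SH SO2 replicate 1 (1529.5), and in air only through SD air replicate 2 (1366), which exceeded SH air replicate 1 (1260). SH minus SD was 1.01 ± 0.23 in SO2, a 2.02-fold difference, and 0.74 ± 0.23 in air, or 0.91 ± 0.23 without SD air replicate 2. SO2 minus air was 0.42 ± 0.23 in SH rats and 0.14 ± 0.23 in SD rats, and 0.31 ± 0.23 in SD rats without that array, each under 2 times its SE.

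Irf1, the factor that interferon gamma induces early through a GAS, differed little among the groups. Its means were 1345.5 ± 89.0 in SH SO2, 1339 ± 47.7 in SH air, 1499 ± 145 in SD SO2 and 1560.2 ± 195 in SD air (SD, n = 4 each). Signals ran from 1248 to 1432 in SH SO2, from 1274 to 1384 in SH air, from 1335 to 1635.5 in SD SO2 and from 1379 to 1836 in SD air. SH minus SD was -0.15 ± 0.11 in SO2 and -0.21 ± 0.11 in air (-0.27 ± 0.11 without SD air replicate 2, when the groups no longer overlapped), so Irf1 and Irf7 had opposite signs. For SO2 minus air the difference was 0.01 ± 0.11 in SH rats and -0.05 ± 0.11 in SD rats (-0.11 ± 0.11 without that array).

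Usp18 encodes the protease that strips Isg15 from proteins and holds back the type I receptor. It read 1018, 659.7, 885 and 853.5 in SH rats in SO2 and 655, 641, 933 and 641 in SH rats in air. SD rats had 459.8, 465, 620.4 and 643 in SO2 and 302, 634, 403 and 391 in air. All SH arrays were above all SD arrays of the same exposure, in air by a narrow margin, since SD air replicate 2 read 634 and the lowest SH air array 641. The other 3 SD air arrays averaged 366 ± 55.3 (SD, n = 3). SH minus SD was 0.63 ± 0.20 in SO2 and 0.74 ± 0.20 in air, or 0.94 ± 0.18 without SD air replicate 2. The SO2 minus air difference was 0.25 ± 0.20 in SH rats. In SD rats it was 0.36 ± 0.20, and 0.56 ± 0.18 without that array, when the groups no longer overlapped.

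The 2 interferon gamma-induced GTPases had another pattern, with SD rats in air as the group of lowest mean. Irgm2, an immunity-related GTPase that in mice regulates its relatives on the vacuoles of intracellular microbes, read 1067, 913, 1063 and 1348.5 in SH rats in SO2 and 1044, 1155, 1170.3 and 1085 in SH rats in air. In SD rats it read 1110.0, 1207.5, 1292 and 1316 in SO2 and 751, 925, 834 and 759.8 in air. Every SD SO2 array and every SH air array lay above every SD air array, while the SH SO2, SH air and SD SO2 groups overlapped one another. SH SO2 and SD air overlapped too, since SH SO2 replicate 2 (913) was below SD air replicate 2 (925). Between SO2 and air the difference was 0.58 ± 0.12 in SD rats (0.64 ± 0.13 without SD air replicate 2) and -0.03 ± 0.12 in SH rats. The SO2 effect in SH rats minus that in SD rats was -0.62 ± 0.17, or -0.68 ± 0.17 without that array. A further probe set that names Irgm2 together with other genes was left out.

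Gbp2, a guanylate-binding protein that helps open microbe-containing vacuoles, followed the same order. Its signals were 589, 727, 921 and 778.5 in SH rats in SO2 and 768, 978.5, 819 and 693 in SH rats in air. SD rats had 757, 676, 916 and 1076 in SO2 and 558, 557, 488.5 and 665 in air. The lowest SD SO2 array (676) and the lowest SH air array (693) were just above the highest SD air array (665). SH SO2 replicate 1 (589) lay inside the range of the SD air arrays. SO2 minus air was 0.57 ± 0.16 in SD rats (0.56 ± 0.18 without SD air replicate 2) and -0.12 ± 0.16 in SH rats, and the SO2 effect in SH rats minus that in SD rats was -0.68 ± 0.23 (-0.68 ± 0.24 without that array). SH minus SD was 0.51 ± 0.16 in air and -0.18 ± 0.16 in SO2 for Gbp2, and 0.44 ± 0.12 in air and -0.17 ± 0.12 in SO2 for Irgm2. Leaving that array out gave 0.50 ± 0.18 for Gbp2 and 0.50 ± 0.13 for Irgm2 in air.

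Ifngr1, the chain of the interferon gamma receptor that binds the ligand, was lower in SH rats. Signals were 1961, 1857, 1975.5 and 1959.8 in SH rats in SO2 and 2222.5, 2173, 1684 and 2056 in SH rats in air. SD rats had 2591, 3472, 2967 and 3001 in SO2 and 2929, 2608.5, 2915 and 3229 in air. The highest of the 8 SH arrays, 2222.5, was below the lowest of the 8 SD arrays, 2591. SH minus SD was -0.62 ± 0.11 in SO2 (0.65-fold) and -0.52 ± 0.11 in air (0.696-fold), or -0.58 ± 0.12 without SD air replicate 2. For SO2 minus air the difference was -0.06 ± 0.11 in SH rats and 0.04 ± 0.11 in SD rats, and -0.01 ± 0.12 in SD rats without that array, all smaller than their SE.

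**Figure D2:**
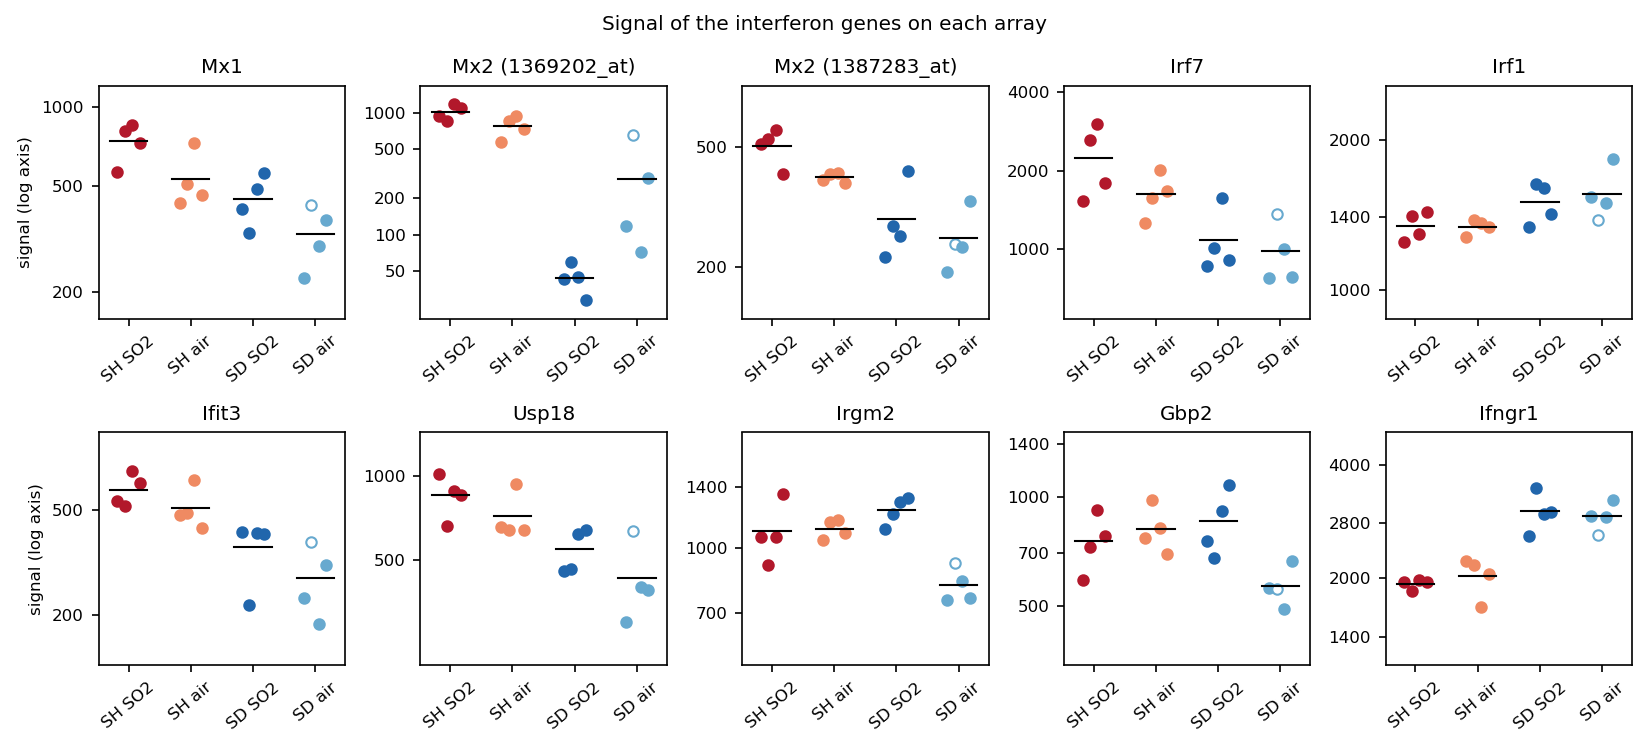
Signal of each of the 10 probe sets (y axis, log) on each array, by group, with SD air replicate 2 as an open circle and the group mean as a bar. Mx1, Ifit3 and Usp18 are higher on SH than on SD arrays of the same exposure, and Ifngr1 is lower on all SH arrays. Irgm2 and Gbp2 have their lowest group mean in SD air, where both overlap SH SO2.

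The order of the group means, SH SO2, SH air, SD SO2 and SD air, was shared by Mx1, Mx2 1387283_at, Irf7, Ifit3 and Usp18. Neighbours in this order overlapped, except that every SH air array exceeded every SD SO2 array for Ifit3. For Mx2 1369202_at the order was SH SO2, SH air, SD air and SD SO2, and only the last neighbours were free of overlap. The orders held without SD air replicate 2, and SD SO2 and SD air no longer overlapped for Usp18, nor SH air and SD air for Mx2 1369202_at.

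In SO2, 3 of the 10 probe sets were past an adjusted p of 0.05 as higher in SH than in SD rats (both for Mx2, and Irf7), where 0.405% of all probe sets were, and 1 (Ifngr1) as lower, where 0.405% were too. Both strains' arrays were free of overlap for 4 probe sets on the higher side (Mx1, Mx2 1369202_at, Ifit3 and Usp18; 2.82% of all probe sets) and 1 on the lower side (Ifngr1; 2.76%). The Irf7 call was lost in 12 and the call of Mx2 1387283_at in 15 of 27 other analysis settings, whereas those of Mx2 1369202_at and Ifngr1 held in all 27. Mx1, Ifit3 and Usp18 did not pass although their arrays did not overlap. Overall 6 of 10 differences were above 0, with a median of 0.67, against 50.1% and a median of 0.00 over all probe sets tested. At an unadjusted p under 0.05 there were 1127 probe sets (10.1%).

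In air, limma called 0 of 11106 probe sets between SH and SD rats (0.0%), so no member passed. Before adjustment, 709 probe sets (6.38%) had p under 0.05. Differences were above 0 for 8 of 10 probe sets, all but Irf1 and Ifngr1, with a median of 0.67, against 50.3% and 0.00 over all probe sets. Arrays did not overlap for 6 on the higher side (1.96% of all probe sets) and 1 on the lower side (2.06%). Without SD air replicate 2, which was singled out for SH-like signals, 86 probe sets passed in air, and these calls carry no independent support. Among them 3 members were higher (Mx2 1369202_at, Ifit3 and Usp18; 0.387% of all probe sets) and 1, Ifngr1, was lower (0.387%). The same 8 were above 0, with a median of 0.73 against 48.3% and -0.01. Array overlap was then absent for 8 members on the higher side (5.7% of all probe sets) and 2 on the lower side (5.63%).

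For SO2 against air, limma called 0 of 11106 probe sets (0.0%) in SH rats and 0 in SD rats (0.0%). At an unadjusted p under 0.05 there were 537 in SH rats (4.84%) and 915 in SD rats (8.24%). In SH rats 7 of 10 members were above 0, with a median of 0.24 against 53.6% and 0.02 over all probe sets, and the arrays of all 10 overlapped (2.15% of all probe sets were free of overlap as higher and 2.02% as lower). In SD rats 8 of 10 were above 0, with a median of 0.28 against 53.4% and 0.02. There SO2 and air arrays did not overlap for Irgm2 and Gbp2 on the higher side (2.07% of all probe sets) and for Mx2 1369202_at on the lower side (1.47%). Without SD air replicate 2, 7 of 10 were above 0, since Ifngr1 changed sign, with a median of 0.42 against 51.6% and 0.01. Overlap was then absent for Usp18, Irgm2 and Gbp2 on the higher side (3.79% of all probe sets) and again for Mx2 1369202_at on the lower side (3.01%). Without SD air replicate 3, the Mx2 1369202_at difference was -2.35 and passed (limma adjusted p = 0.0296). The interaction, which is the SO2 effect in SH rats minus that in SD rats, called 0 probe sets (0.0%), with 516 (4.65%) at an unadjusted p under 0.05. The strain and exposure comparisons share groups, so a member's values in them are not independent.

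**Figure D3:**
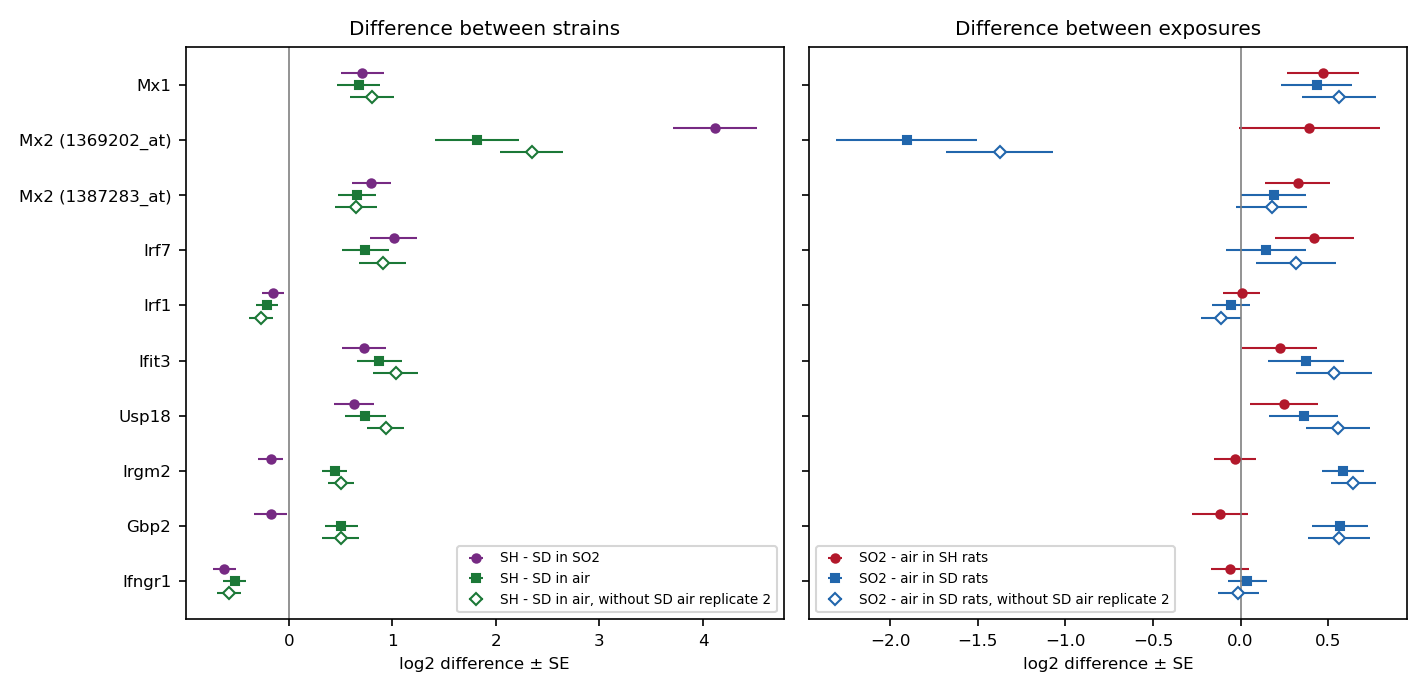
Log2 difference ± SE of each probe set between strains (left) and between exposures (right), with open symbols for fits without SD air replicate 2. Between strains, 6 probe sets are above 0 and 2 (Irf1 and Ifngr1) below 0 in both SO2 and air, while Irgm2 and Gbp2 are above 0 in air only.

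Deviations from the group means were compared between members over the 16 arrays. For Mx1, Irf7, Ifit3 and Usp18 the 6 correlations ran from 0.316 to 0.749, and from 0.135 to 0.694 without SD air replicate 2. Those of the Mx2 probe sets with these 4 genes ran from 0.0471 (1387283_at with Irf7) to 0.571 (1369202_at with Ifit3), and from 0.0513 to 0.574 without it. Within the 4 SH SO2 arrays Usp18 ran against Mx1 (r = -0.67) and Irf7 (-0.573), while in each of the other groups all 6 correlations were above 0. Gbp2 and Irgm2 with Mx1, Irf7, Ifit3 and Usp18 ran from 0.165 (Gbp2 with Usp18) to 0.644 (Irgm2 with Usp18). Without SD air replicate 2 they ran from -0.0123 (Irgm2 with Irf7) to 0.693 (Gbp2 with Mx1). These ranges overlapped those of the 4 genes with one another. Over all 45 pairs of member probe sets the correlations ran from -0.566 (Ifit3 with Ifngr1) to 0.749 (Mx1 with Ifit3), with a median of 0.235. These arrays share scaling and tissue sampling, and the values are a description.

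**Figure D4:**
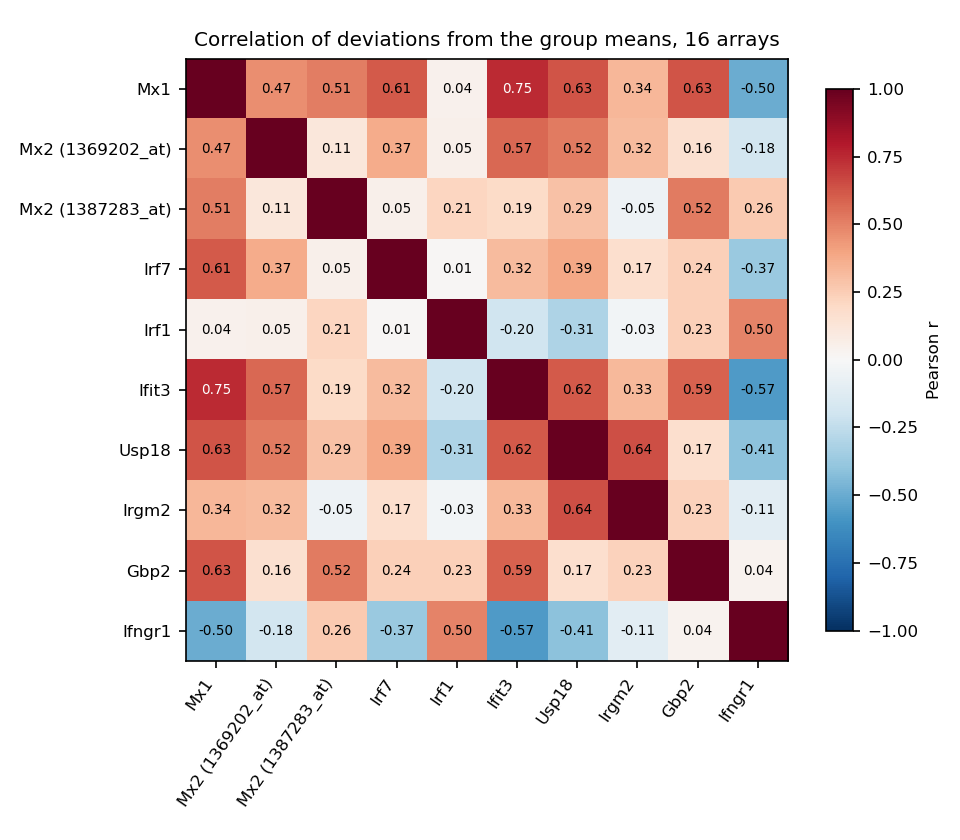
Pearson r between each 2 member probe sets of their deviations from the group means over 16 arrays. Mx1, Ifit3 and Usp18 correlate with one another at 0.617 to 0.749, and Ifngr1 is negative with Mx1 and Ifit3. Gbp2 with Mx1 (0.627) and Irgm2 with Usp18 (0.644) lie in the same range.

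The probe sets most like each member over the 16 arrays were often interferon genes for Mx1, Usp18, Ifit3 and Irf7, mostly other members. Group differences were included, and the members were chosen on these same signals, so this likeness carries no test. For Mx1 they were Ifit3 (r = 0.90), Oas1a (0.882) and Gng8 (0.869), and for Usp18 they were Ifit3 (0.873), Mx1 (0.867) and Oas1a (0.866). Ifit3 was nearest to Mx1, Nrn1 (0.893) and Usp18, Irf7 to Gask1b (0.854), Mx1 (0.845) and Ifnar1 (0.835), and Mx2 1387283_at, the Mx2 probe set with the higher mean on the log2 scale, to Ifit1 (0.849), Ckmt1 (0.845) and Higd1b (0.845). The neighbours of Mx2 1369202_at, added after the values were seen, were Adgrl2 (0.935), Slco1a5 (0.912) and Gsta3 (0.911), none of them on the interferon lists. The other members had no gene of the interferon lists but Lgals3bp among their nearest 3. Irgm2 was nearest to Tmf1 (0.805), Eif4g2 (0.797) and Nemf (0.78), Gbp2 to Cnbp (0.787), Pphln1 (0.769) and Lgals3bp (0.751), Irf1 to Mfap5 (0.795), Rfc2 (0.786) and Eeig1 (0.776), and Ifngr1 to Mfhas1 (0.93), RT1-T24-4 (0.923) and Ythdf2 (0.911). Of these 30 neighbours, 21 were still among the nearest 3 without SD air replicate 2. The r of deviations from the group means was 0.488 to 0.846 for the 30.

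Other genes of the pathway came from a list of 94, of which 45 were on the array under a single symbol and 38 passed the filter. The list was drawn up with earlier results of these data known. None of the 38 passed an adjusted p of 0.05 in any of the 5 limma comparisons. With that array of SD air left out (replicate 2), 1 passed in each strain comparison and 0 in the other 3. At an unadjusted p under 0.05 there were 6 between SH and SD rats in SO2 (against 10.1% of all probe sets), 7 between them in air (6.38%), 1 for SO2 in SH rats (4.84%), 6 for SO2 in SD rats (8.24%) and 1 for the interaction (4.65%). In air, 28 of 38 (73.7%) were above 0 for SH minus SD rats, with a median of 0.16, and 29 without SD air replicate 2, with a median of 0.18. In SO2 the same comparison had 20 of 38 (52.6%) above 0, with a median of 0.04. Of the 17 antiviral effectors, 11 were above 0 in SO2 and 16 in air, or 15 in air without that array. For SO2 minus air, 31 of 38 (81.6%) were above 0 in SD rats (median 0.16, or 0.205 without that array, again with 31) and 25 (65.8%) in SH rats (median 0.06). Over all probe sets, the shares above 0 for SH minus SD rats were 50.3% in air and 50.1% in SO2. For SO2 minus air they were 53.4% in SD rats and 53.6% in SH rats. Without that array they were 48.3% between strains in air and 51.6% for SO2 in SD rats.

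By role, the type I receptor chain Ifnar1 came nearest to the threshold. It averaged 886 ± 165 in SH SO2 against 557 ± 71.9 in SD SO2, with no overlap (0.65 ± 0.18, limma adjusted p = 0.117). In air its mean was 802 ± 64.4 in SH against 543 ± 183 in SD rats (0.60 ± 0.18, adjusted p = 0.351). Without SD air replicate 2, Ifnar1 passed the threshold in both, with 0.80 ± 0.15 in air (adjusted p = 0.0133) and 0.65 ± 0.14 in SO2 (adjusted p = 0.0273). In SO2 the Ifnar1 difference uses no SD air array and stayed at 0.65, while its SE and adjusted p fell through the shared spread. That setting called 43 of 11106 probe sets as higher in SH rats in air and 60 in SO2. The sign of Ifnar1 was opposite to that of Ifngr1. The other type I chain, Ifnar2, had the smallest unadjusted p of the list for SO2 in SD rats, with 932 ± 116 in SO2 and 719.8 ± 56.7 in air (0.36 ± 0.11, adjusted p = 0.428). Without SD air replicate 2 the Ifnar2 difference was 0.31 ± 0.12 (adjusted p = 0.499), and Lgals9 had the smallest p instead (0.67 ± 0.22, adjusted p = 0.473). Ifngr2, the signalling chain of the interferon gamma receptor, averaged 707 ± 51.7 in SH SO2 and 856 ± 77.0 in SH air (-0.27 ± 0.12, adjusted p = 0.949).

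Among sensors and factors, Sting1, the adaptor for cytosolic DNA, averaged 336 ± 41.2 in SD SO2 and 236 ± 13.8 in SD air (0.47 ± 0.15, limma adjusted p = 0.429). Irf3, which starts interferon production, had a difference of 0.38 ± 0.13 (adjusted p = 0.47) and Stat2, part of the factor that binds the ISRE, 0.34 ± 0.13 (adjusted p = 0.522) in the same comparison. The SD SO2 and SD air arrays did not overlap, as higher in SO2, for 3 of the 38 genes, Ifnar2, Sting1 and Irf3 (2.07% of all probe sets). Without SD air replicate 2 this held for 6 genes (3.79% of all probe sets). Fits without SD air replicate 2 gave 0.45 ± 0.16 for Sting1, 0.40 ± 0.14 for Irf3 and 0.38 ± 0.15 for Stat2.

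Among effectors and targets between strains in SO2, Ifit1, the partner of Ifit3, averaged 659.9 ± 116 in SH and 409 ± 157 in SD rats (0.74 ± 0.23, limma adjusted p = 0.173). Cxcl9, a chemokine induced by interferon gamma, had a difference of 0.54 ± 0.19 (adjusted p = 0.256) and Oas1a, an activator of RNA decay, 0.49 ± 0.18 (adjusted p = 0.285). In air, Dtx3l, a ubiquitin ligase of the antiviral response, averaged 713 ± 58.0 in SH and 443 ± 105 in SD rats (0.69 ± 0.17, adjusted p = 0.179). The lectin Lgals9 and the galectin-binding protein Lgals3bp had differences of 0.69 ± 0.22 (adjusted p = 0.406) and 0.40 ± 0.13 (adjusted p = 0.391). With SD air replicate 2 dropped, the values were 0.76 ± 0.18 for Dtx3l (adjusted p = 0.0604), 0.83 ± 0.22 for Lgals9 (0.112) and 0.46 ± 0.14 for Lgals3bp (0.176). For SO2 in SH rats the antiviral genes of smallest p were Oasl (0.44 ± 0.21), Oas1a (0.37 ± 0.18) and the virion tether Bst2 (-0.87 ± 0.45), all at an adjusted p of 0.949.

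For the interaction, the genes of smallest p were Lgals3bp (-0.46 ± 0.18), Bst2 (-1.30 ± 0.63), Ifnar2 (-0.31 ± 0.15) and Lgals9 (-0.58 ± 0.31), all at a limma adjusted p of 0.981. These were -0.52 ± 0.18, -1.45 ± 0.66, -0.26 ± 0.16 and -0.73 ± 0.30 in the same gene order without SD air replicate 2, with adjusted p from 0.81 to 0.879. Bst2 varied within groups, from 3640 to 12520 in SH SO2 and from 2181 to 14481 in SD air. Of 9 listed interferon ligands, 2 were on the array. Ifng ranged from 2.3 to 89.7 over the 16 arrays and Ifnb1 from 5.6 to 46.0, and neither passed the filter on dim probe sets.

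**Figure D5:**
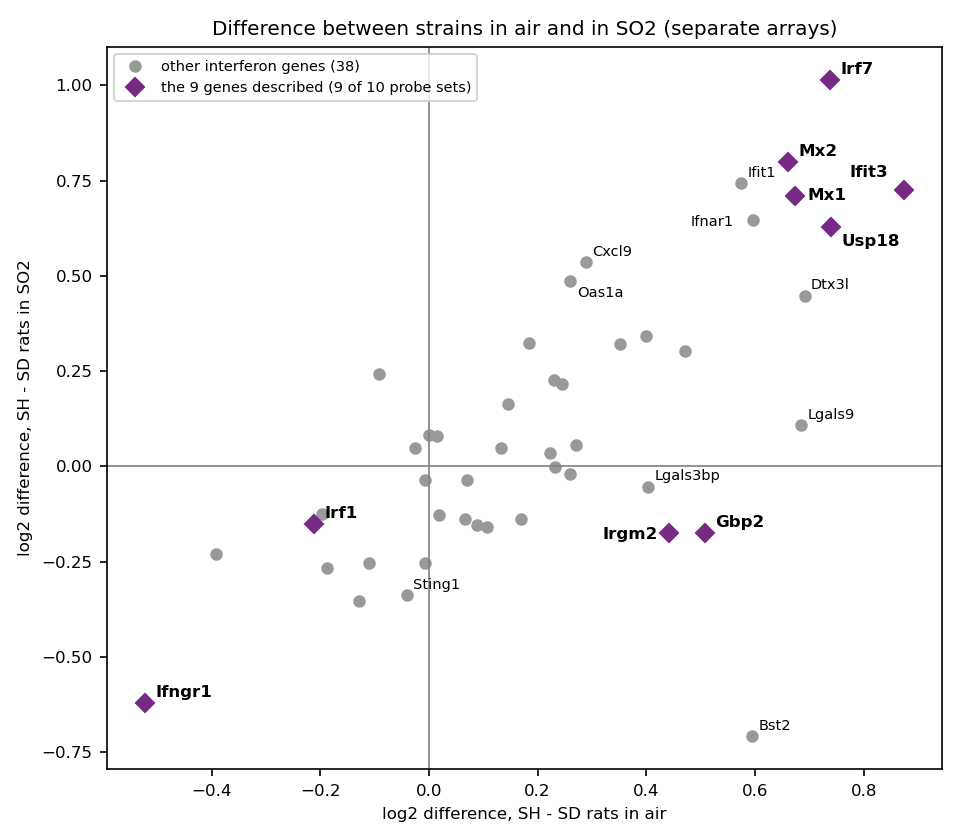
SH minus SD log2 difference in air (x axis) and in SO2 (y axis) for 38 other interferon genes (grey) and 9 of the 10 member probe sets (purple). Mx2 1369202_at, at 1.82 in air and 4.11 in SO2, is left out of the range shown. The air and SO2 values come from separate arrays, and Irgm2 and Gbp2 are above 0 in air and below 0 in SO2.

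Marker genes of other cells were read beside these comparisons, and 0 were called in any list. Over all probe sets, 53.4% were above 0 for SO2 in SD rats and 50.1% between SH and SD rats in SO2. Without SD air replicate 2 the share for SO2 in SD rats was 51.6%. The summed signal of 15 T and natural killer cell genes was 3536 to 6252 in SD SO2 and 3671 to 5272 in SD air, and all 10 of its genes past the filter were above 0 for SO2 in SD rats (median 0.25, 0 called), the comparison in which Irgm2 and Gbp2 were higher. In SH rats the same sum was 3532 to 4349 in SO2 and 3527 to 4369 in air. Cd3e, a defining T cell gene, ranged from 25.8 to 139 over all arrays. Of the 10, 9 were above 0 for SO2 in SD rats (median 0.27) without SD air replicate 2. Between SH and SD rats in SO2, 0 of the 10 were above 0 (median -0.205, 0 called). The summed signal of 6 heart muscle genes was 2189 to 3720 in SH SO2 and 2034 to 3145 in SH air, against 1193 to 2405 in SD SO2 and 1976 to 3962 in SD air. All 5 past the filter were above 0 between SH and SD rats in SO2 (median 0.64, 0 called), the comparison in which members were called, and below 0 for SO2 in SD rats (median -0.47, 0 called, and -0.475 without SD air replicate 2). The 4 neutrophil genes on the array summed to 1797 to 2466 in SH SO2 against 727 to 1841 in SD SO2, and to 1298 to 2540 in SH air against 937 to 2544 in SD air (937 to 2011 without SD air replicate 2). Between SH and SD rats, 3 of the 4 were above 0 in SO2 (median 0.562, 0 called). In air 3 were above 0 as well (median 0.39, or 0.576 without SD air replicate 2, 0 called), against 50.3% of all probe sets (48.3% without it). For SO2 in SD rats 2 were above 0 (median -0.0985), and 3 without that array (median 0.226). For SO2 in SD rats, 4 of 4 macrophage genes (median 0.073) and 4 of 8 lung epithelium genes (median 0.038) were above 0. Without SD air replicate 2 these were 3 (0.117) and 5 (0.0268). Between SH and SD rats in SO2, 0 macrophage genes (median -0.0707) and 2 lung epithelium genes (median -0.0336) were above 0. Only 1 B cell gene was on the array. The part of these cells in the differences of the interferon genes was not tested.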

How the data were processed

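The authors deposited linear intensities, 1 for each probe set on an array, and the submitters' processing notes name Affymetrix GCOS without a version. The trimmed mean (2% off each end) of every array was 500.099 to 500.111, and no rescaling was done. Of 15923 probe sets, 57 controls were left out. Of the rest, 12783 had 1 symbol, 312 several and 2771 none; 12748 matched RefSeq's GRCr8 gene table by Entrez identifier with 0 changes of symbol.

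The fits used log2(intensity + 16) and dropped the dimmest 30% of probe sets by mean log2 value. Limma 3.58.1 in R 4.3.3 (lmFit, eBayes with a trend) fitted 4 group means with 12 residual degrees of freedom, with Benjamini-Hochberg adjustment over 11106 probe sets. The fit was tested on simulated data. Plots were made in matplotlib 3.10.9 and Python 3.11.15. The number of arrays limits the precision, and the p-values measure the spread between samples that the labels call biological replicates.

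The 9 genes and the gene lists were chosen with earlier results of these data known. Named were all member probe sets, called genes of the pathway list or else the 4 of smallest p in a comparison, and the 3 nearest genes of each member by Pearson r over 16 arrays (for Mx2, of the probe set with the higher mean log2 value). Genes further down the list are named only from these. Replicate numbers did not pair the samples: deviations of same-numbered arrays had r from -0.249 to 0.151 over 16 array pairs. Alternatives were offsets of 1 and 64, quantile normalization, centring on medians, no filter or 50% left out, the replicate number as a block, the title number as a covariate, eBayes without a trend, array weights, each array left out and, added after seeing the data, array quality covariates.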

Additional observations from a re-analysis of the deposited data

Results flagged for a closer look

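In 3 of 40 groups of 4 arrays, 1 array lay far from the other 3 for a member probe set, where chance alone gives about 1 in 20 groups, or 2. Ifit3 read 219.7 on SD SO2 replicate 2, against 404.0 to 411.3 on the other SD SO2 arrays. Usp18 read 932.9 on SH air replicate 3, against 640.9 to 654.8 on the other SH air arrays. Ifngr1 read 1857.0 on SH SO2 replicate 2, against 1959.8 to 1975.5 on the other SH SO2 arrays.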

How the results depend on the processing

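Among 27 other settings, the 1350 differences of the member probe sets included 1341 that moved by less than the spread between replicates. In the strain comparisons 0 of 540 changed sign, and in the SO2 and interaction comparisons 30 did. With the title number as a covariate, which the title order ties to the groups, 8 differences moved, among them Irf1 in air for SH minus SD (-0.04) and Mx1 for SO2 in SH rats (0.14). An offset of 64 gave 3.32 for Mx2 1369202_at in SO2.

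Between SH and SD rats in SO2, 90 probe sets were called, and 137 with array quality covariates (with Ifnar1, 1 other interferon gene). Leaving out each array gave 50 to 115, with 50 without SH SO2 replicate 3, 57 without SH SO2 replicate 2 and 58 without SD SO2 replicate 4. Of the 10 member probe sets, 4 were called, and 2 with no filter, with the title number or without a trend. Leaving out each array gave 2 to 4. The call of Irf7 was lost in 7 of 16 and that of Mx2 1387283_at in 11 of 16 such fits. Irf7 was lost without SH SO2 replicates 2 or 3, SD SO2 replicates 1, 2 or 4, or SH air replicates 2 or 4. Mx2 1387283_at was lost without SH SO2 replicates 1, 2 or 3, any SH air array, SD SO2 replicates 1, 2 or 3, or SD air replicate 3. Other interferon genes called were 0 to 1 (Ifnar1, without SD air replicate 2).

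Between SH and SD rats in air, the count of 0 became 5 with an offset of 64, 1 with no filter, 1 without a trend, 28 with array weights and 2 with array quality covariates. Leaving out each array gave 0 to 86, with 86 without SD air replicate 2 and 1 without SH air replicate 1. Array weights called 3 member probe sets (both for Mx2, and Ifngr1) and 1 other interferon gene, Dtx3l (0.76, limma adjusted p = 0.0391). Leaving out each array called 0 to 4 members and 0 to 1 other interferon genes. For SO2 against air, leaving out each array called 0 to 1 probe sets in SH rats and 0 to 3 in SD rats (3 without SD air replicate 4). It called 0 to 1 members in SD rats, Mx2 1369202_at without SD air replicate 3 (-2.35, limma adjusted p = 0.0296). The causes of these changes were not tested.

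The replicate block called 86 probe sets and 3 members between strains in SO2, where Mx2 1387283_at had an adjusted p of 0.0625 in limma, and 0 in the other comparisons.

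Detection calls were not used here, so dim signals limit the size of the Mx2 1369202_at difference.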
